A study of Mus musculus with 18 samples.

Results

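The cytosolic ribosomal protein genes encode the proteins of the large (Rpl) and small (Rps) ribosomal subunits. They were taken by symbol, as every gene named Rpl or Rps followed by a number and at most an a, l or x, together with Rplp0, Rplp1, Rplp2 and Rpsa. The rule found 83 of the 55401 genes in the count files. Of these, 76 are the widely expressed protein-coding genes, 46 of the large and 30 of the small subunit. Another 4 are protein-coding paralogs (Rpl3l, Rpl10l, Rpl39l and Rps27l) and 3 are annotated pseudogenes (Rps4l, Rpl6l and Rpl32l).

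RNA was sequenced from gp38+ (podoplanin-bearing) wild-type stromal cells that had been sorted from salivary glands of Balb/c mice aged 8 to 12 weeks. The 18 libraries, each from a mouse of its own, form 6 groups of 3. Hour 0 is the uninfected gland (replicates 10, 11 and 12). The others received replication-defective adenovirus 5 through the cannulated duct of the submandibular gland and were taken at 3 hours (replicates 4, 5 and 6), 1 day (13, 14 and 15), 2 days (16, 17 and 18), 8 days (1, 2 and 3) and 23 days (7, 8 and 9). Cannulation without virus is not among the groups, and effects of the procedure and of the virus cannot be told apart against hour 0. The purpose of the virus, per the series description, was to start the formation of ectopic lymphoid tissue, and the time course asks how the stromal cells change meanwhile.

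Ribosomal proteins are made in equal amounts for assembly with ribosomal RNA in the nucleolus, and their genes are among the most transcribed of any growing cell. Their messages begin with a short run of C and T bases, the terminal oligopyrimidine tract, through which the kinase mTOR and the protein LARP1 set how much of each message is translated. Transcription of these genes and of the factors that assemble ribosomes is raised by MYC, and a surplus of free ribosomal proteins can stabilise p53 by binding MDM2.

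The pyrimidine run is what many of these genes share at their starts. RefSeq promoter entries (GRCm38.p6) were matched for 61 members. A run of 8 or more consecutive C or T bases on the sense strand, overlapping the stretch from 20 bases before to 20 bases after the annotated start, was present in 33 of them (54.1%). Among all 27025 genes with such an entry 6399 (23.7%) had one. Below are 6 of these starts, chosen to show runs of differing length and both subunits. Runs of 8 and 9 bases also occurred and are not shown. Each covers 40 bases before the start and 20 from it, 5′ to 3′ on the gene's strand, with the run in capitals.
Rps6, chr4:86857348-86857407, minus strand: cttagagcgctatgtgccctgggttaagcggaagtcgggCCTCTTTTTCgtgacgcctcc
Rps18, chr17:33955646-33955705, minus strand: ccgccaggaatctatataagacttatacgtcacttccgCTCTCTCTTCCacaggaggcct
Rplp2, chr7:141447611-141447670, plus strand: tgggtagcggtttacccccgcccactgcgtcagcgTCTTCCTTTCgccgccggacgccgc
Rpl15, chr14:18270967-18271026, minus strand: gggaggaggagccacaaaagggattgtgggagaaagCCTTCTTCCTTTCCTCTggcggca
Rpl27a, chr7:109519155-109519214, plus strand: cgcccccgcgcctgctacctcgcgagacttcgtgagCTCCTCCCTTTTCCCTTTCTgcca
Rpl7a, chr2:26910767-26910826, plus strand: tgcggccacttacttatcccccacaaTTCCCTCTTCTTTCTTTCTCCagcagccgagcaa
The run was 10 bases long in Rps6 and Rplp2, 11 in Rps18, 17 in Rpl15, 20 in Rpl27a and 21 in Rpl7a. It lay within a few bases of the annotated start in the first 5 and began 14 bases before it in Rpl7a. In other members it began further off, such as 17 bases after the start in Rpl10a and 22 before it in Rps25. A match describes the letters in this window only.

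Library totals ran from 4398234 counts (day 2, replicate 16) to 15234431 (day 8, replicate 3), and counts on the 83 genes from 57069 to 243708. The replicate numbers divide the libraries into sets. A measure of background is the density of counts on sensory receptor genes, which stromal cells are not known to use, in counts per kb scaled to 10M counts outside mitochondrially encoded genes. It was 0.0197 to 0.0607 in replicates 1 to 9, which hold hour 3, day 8 and day 23, and 0.550 to 3.41 in replicates 10 to 18, which hold hour 0, day 1 and day 2. For hour 3, day 8 and day 23 against hour 0, the set cannot be told apart from time. The other 5 comparisons, of day 1 and day 2 with hour 0, day 2 with day 1, day 8 with hour 3 and day 23 with day 8, lie within a set. In replicates 10 to 18 the density still differed between groups. It was 1.19 to 1.88 at hour 0, 0.550 to 1.17 at day 1 and 3.17 to 3.41 at day 2. The scaling factors of TMM, the normalization used in the tests, also differed, at 0.516 to 0.547 at hour 3 against 1.14 to 1.24 at hour 0 and 1.53 to 1.58 at day 2. For this reason the count of changed members in each pairwise comparison is given under TMM and with library totals alone. The shares of all genes called that stand beside these counts are those under TMM. Such shares were not taken with library totals, so the counts under that scaling have no background rate here. The 3 stromal marker genes looked at were detected in every library, at levels that differed between groups. Pdpn, which encodes gp38, was at 67.4 to 80.8 CPM (counts scaled to a common library total) at hour 0, 391 to 483 at hour 3, 265 to 540.3 at day 1 and 273 to 309 at day 2, and lay between 40.6 and 74.1 at days 8 and 23. Pdgfra, a fibroblast receptor gene, was at 2075 to 2527 CPM at hour 0 and 202 to 260.2 at day 1, and the other groups ranged from 529 to 1674. Col1a1, a fibrillar collagen gene, ranged from 3026 to 9304 CPM. Replicates 8 and 9 of day 23 stood apart from replicate 7 in the mix of ribosomal protein messages, as described below.

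In uninfected glands the deposited levels of the 76 widely expressed genes spanned nearly 3 orders of magnitude per kb of principal transcript. Among the highest levels per kb at hour 0 were those of Rplp1, an acidic stalk protein gene (821 ± 71.9 CPM per kb, mean ± SD, n = 3), Rpl26 (653 ± 41.6), Rpl8 (410 ± 55.4) and Rps23 (373 ± 33.2). The ranges of 1 SD overlapped between Rpl8 and Rps23, and between the next in order, Rpl22 and Rpsa (351 ± 24.0 and 340 ± 43.4 CPM per kb). The lowest of all 83 were the paralog Rpl39l (0.0485 ± 0.0840), the pseudogene Rpl6l (0.673 ± 0.525), the paralog Rpl3l (0.840 ± 1.19), the pseudogene Rpl32l (1.11 ± 0.910) and Rpl24, which encodes a large-subunit protein (1.12 ± 0.746 CPM per kb). The ranges of 1 SD of Rpl24, Rpl32l, Rpl3l and Rpl6l overlapped one another.

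Rpl24, Rps10 and Rpl13a stood far below the other widely expressed genes. Their levels per kb at hour 0 were 1.12, 1.92 and 8.18 CPM, whereas the other 73 ran from 13.9 to 821 CPM per kb with a median of 163. These are also the only 3 members with over 50% of the principal transcript inside exons of another annotated gene on the same strand (GENCODE M21). The overlap was 71.5% for Rpl24 (with Gm28037), 53.5% for Rps10 (with the read-through gene RPS10-NUDT3) and 59.3% for Rpl13a (with Gm45713 and the microRNA gene Mir5121). The processed pseudogene Gm11478, which shares 50-base stretches with Rpl13a, held 31940 counts over the 18 libraries, and Rpl13a held 2155. At hour 0 Gm11478 was at 149 ± 22.9 CPM (n = 3) and Rpl13a at 8.56 ± 2.20. How the submitters' counting treated reads in overlapping genes, or reads that map to several places, is not given in the sources used here, and the part of either in these levels was not tested. The deposited levels of Rpl24, Rps10 and Rpl13a are therefore uncertain.

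**Figure D1:**
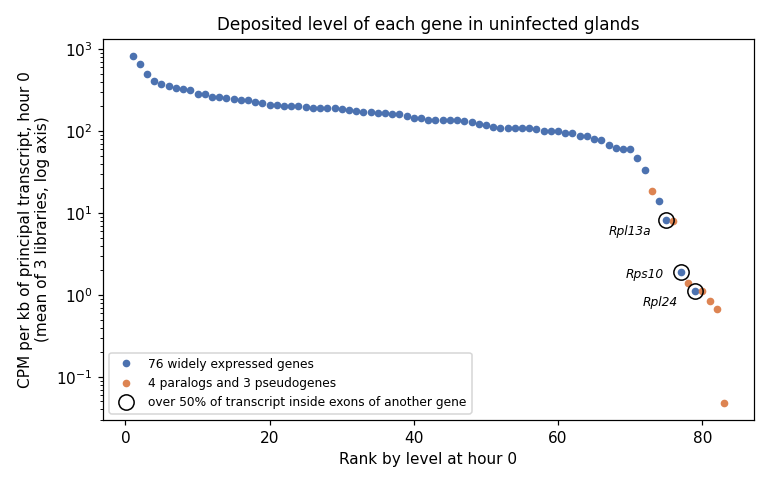
Level of each of the 83 genes at hour 0 (y axis, CPM per kb of principal transcript, mean of 3 libraries, log axis) against its rank (x axis). Blue points are the 76 widely expressed genes, orange points the paralogs and pseudogenes, and black rings the 3 genes with over 50% of their transcript inside exons of another gene, which sit at 1.12 to 8.18 CPM per kb.

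Sequence sharing is wide in this family. Among the other 73 genes a median of 54.5% of the 50-base words of the principal transcript occurred in some other annotated transcript (range 0 to 98.7%). The 1085 pseudogenes that share such words held 4.43 to 4.57% as many counts as the 83 members at hour 3, 7.67 to 9.41% at hour 0 and 10.8 to 11.6% at day 2. Small differences between members are for this reason less certain than those of the family as a whole.

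The mean share of all counts that fell on the 83 genes was lowest in uninfected glands and highest at day 1. At hour 0 it was 1.13%, 0.974% and 1.17% (replicates 10, 11 and 12). Hour 3 had 1.18%, 1.27% and 1.17%. The day 1 libraries stood at 2.48%, 1.49% and 2.04%, and those of day 2 at 1.42%, 1.35% and 1.59%. Later, 1.62%, 1.51% and 1.53% of counts were on these genes by day 8, and 1.10%, 1.57% and 1.24% by day 23. Every library of day 1, day 2 and day 8 lay above all 3 of hour 0, whereas hour 3 and day 23 overlapped hour 0. The means were 1.09 ± 0.104% at hour 0 and 2.00 ± 0.497% at day 1 (SD, n = 3). In bulk samples a change in the mix of cells and a change of RNA per cell cannot be told apart.

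**Figure D2:**
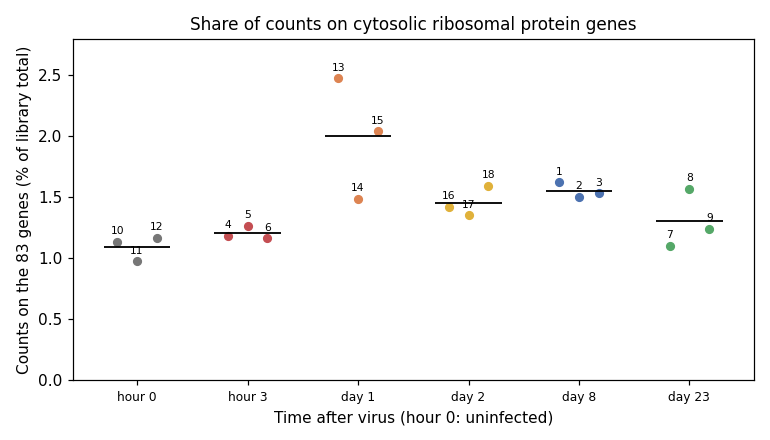
Share of each library's counts on the 83 genes (y axis, percent of library total) by group (x axis). Points are libraries with their replicate numbers and lines are group means. Day 1 has the highest mean, 2.00%, and the widest spread, from 1.49% to 2.48%.

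Abundant secretory messages changed over the same groups. The summed level of 6 acinar and duct secretory genes was 37819 to 81126 CPM in the hour 0 libraries and 3159 to 4144 CPM in those of day 1. It was 338 to 1659 CPM in the day 2 libraries and 68373 to 179450 in those of day 23, and none of the 6 genes was at 0. The 8 fibroblast markers summed to 29366 to 34919 CPM at hour 0 and 14484 to 18835 at day 1. With the 10 most abundant genes of each library taken out of the total, the share of the ribosomal protein genes was 1.35 ± 0.143% at hour 0 and 2.25 ± 0.525% at day 1, so the order of these groups held. It was 2.20 ± 0.0986% at day 8 on that footing, close to day 1. Without the mitochondrially encoded genes, which held 3.11 to 4.38% of counts at day 1 and 12.8 to 15.9% at day 8, the shares at hour 0, day 1 and day 8 were 1.17%, 2.08% and 1.82%. The part of the changing cell mix in the remaining differences was not tested.

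Within the family the balance of the subunits moved little. Small-subunit genes took 37.3 ± 0.837% of the counts on the 76 widely expressed genes at hour 0, and the group means of the other times lay between 36.0% and 37.5%. The largest SD was that of day 23 (37.1 ± 1.85%), where the libraries held 37.5%, 35.1% and 38.8%.

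For the tests, 82 of the 83 members passed the filter on low counts, as did 27525 genes in all. The paralog Rpl39l did not. Summed over the 3 libraries of a group it had 1, 3, 9, 13, 1 and 0 counts, in order of time. Over the 6 groups 80 of the 82 members changed (edgeR quasi-likelihood F test, adjusted p below 0.05), against 83.9% of all genes tested. The 2 that did not pass were the pseudogenes Rpl6l and Rpl32l.

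One day after the virus the ribosomal protein genes were higher than in uninfected glands. Of the 82 tested, 54 rose and 0 fell (edgeR quasi-likelihood test, adjusted p below 0.05), against 9.67% of all genes higher and 12.8% lower. Their median log2 fold change was 0.78, and that of all genes was -0.41. Scaled by library totals alone, 65 rose and 0 fell, with medians of 0.87 and -0.31. The count of 54 ran from 39 (without replicate 13) to 68 (without replicate 14) when single libraries were left out. Over the same groups Pdgfra was lower at day 1, as given above. Summed, 4 mural cell markers were at 599 to 1131 CPM at hour 0 and 102 to 131 at day 1. The density of counts on sensory receptor genes was 1.19 to 1.88 at hour 0 and 0.550 to 1.17 at day 1. The part of these differences in the rise was not tested.

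Rps6, whose product is the classic substrate of the S6 kinases (ENSMUSG00000028495, chromosome 4, 86854660 to 86857412), was at 149.7, 130.0 and 149.9 CPM of the library total at hour 0 and at 390.2, 217 and 304 at day 1. All 3 day 1 libraries lay above all 3 of hour 0, with replicate 14 the lowest of them. Its log2 fold change was 0.99 ± 0.186 (SE, adjusted p = 0.000149, edgeR). Rplp0, the scaffold of the ribosomal stalk and a common reference gene in quantitative PCR, stood at 273, 217 and 299 CPM at hour 0 and at 629, 359 and 537 at day 1 (log2 fold change 0.85 ± 0.193, edgeR adjusted p = 0.00128). Rpsa, which encodes a small-subunit protein also known as the laminin receptor, was at 569, 465 and 597 CPM and then at 1178, 664 and 996 (0.70 ± 0.205, edgeR adjusted p = 0.0125). The groups of Rpsa do not overlap, but its call was lost without replicate 11 (log2 fold change 0.58) or replicate 13 (0.50).

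Among members called at 10 CPM or more in the higher group, Rps4l, Rps2 and Rps27l rose most at day 1. Below that level, Rps10 went from 1.42 to 6.16 and Rpl24 from 0.626 to 2.30 CPM scaled by TMM (means, named after their values were seen). Rps2, a small-subunit protein gene near the messenger RNA entry site, went from 104, 116 and 107 CPM at hour 0 to 462, 267 and 431 (log2 fold change 1.73 ± 0.192, edgeR adjusted p = 3.02e-08). Rps27l, a paralog of Rps27 known as a p53 target, went from 9.01, 10.2 and 8.19 to 43.2, 22.1 and 28.1 CPM (1.68 ± 0.290, edgeR adjusted p = 4.67e-05). Rps4l, an intronless copy of the small-subunit gene Rps4 annotated as a transcribed pseudogene (ENSMUSG00000063171, chromosome 6, 148354656 to 148355598), went from 6.91, 6.71 and 5.09 to 43.9, 37.3 and 37.3 CPM (2.57 ± 0.275, edgeR adjusted p = 1.67e-08). In each of the 3 the lowest day 1 library lay above the highest of hour 0. Rps2 shares words with 71 pseudogenes, Rps27l with 4 and Rps4l with 1. One of the 71, Rps2-ps6, was at 23.3 ± 5.29 CPM at hour 0 and 88.4 ± 23.5 at day 1 (n = 3).

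The genes that build and serve ribosomes were also higher at day 1. Of 35 ribosome biogenesis factors, which process and assemble ribosomal RNA in the nucleolus, 29 rose and 0 fell, with a median log2 fold change of 1.12, and the same counts were found with library totals alone. Fbl, the ribosomal RNA methylase fibrillarin (1.92), Rrp12, a pre-ribosome export factor (2.30), and Npm1, nucleophosmin (1.35), were among them. Of 35 translation factors 23 rose and 0 fell (median 0.62), among them Eif5a (1.63) and Eif6 (1.63), which keeps the subunits apart during assembly, and 27 rose with library totals. Among 20 other genes whose messages carry a terminal oligopyrimidine tract, some of them also in the list of translation factors, 13 rose and 0 fell (median 0.64), and 14 rose with library totals. Of 77 mitochondrial ribosomal protein genes tested, 23 rose and 0 fell (median 0.53), and 28 rose with library totals. Of the 7 ribosomal proteins and partners outside the symbol rule, 3 rose: the scaffold Rack1 (0.91) and the paralogs Rpl22l1 (0.86) and Rpl7l1 (1.09), with 3 higher under library totals too. The counts under TMM stand against 9.67% of all genes higher, and no such share is given for those with library totals.

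Among 26 regulators of ribosome production 13 rose and 2 fell at day 1 (14 and 2 with library totals). Myc, the transcription factor, was at 24.9 ± 5.59 CPM at hour 0 and 128 ± 41.6 at day 1 (n = 3, log2 fold change 2.26, edgeR adjusted p = 7.06e-09). Cdkn1a, the cell cycle inhibitor that p53 induces, rose by a log2 fold change of 4.15, and Mdm2, a p53 target and its ubiquitin ligase, by 2.71. Trp53 itself rose by 1.02 (edgeR adjusted p = 0.00108). Larp1, which binds oligopyrimidine messages, rose by 0.98. Those that fell were Eif4ebp2, a brake on cap binding (-1.65), and the stress kinase gene Eif2ak3 (-1.14).

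**Figure D3:**
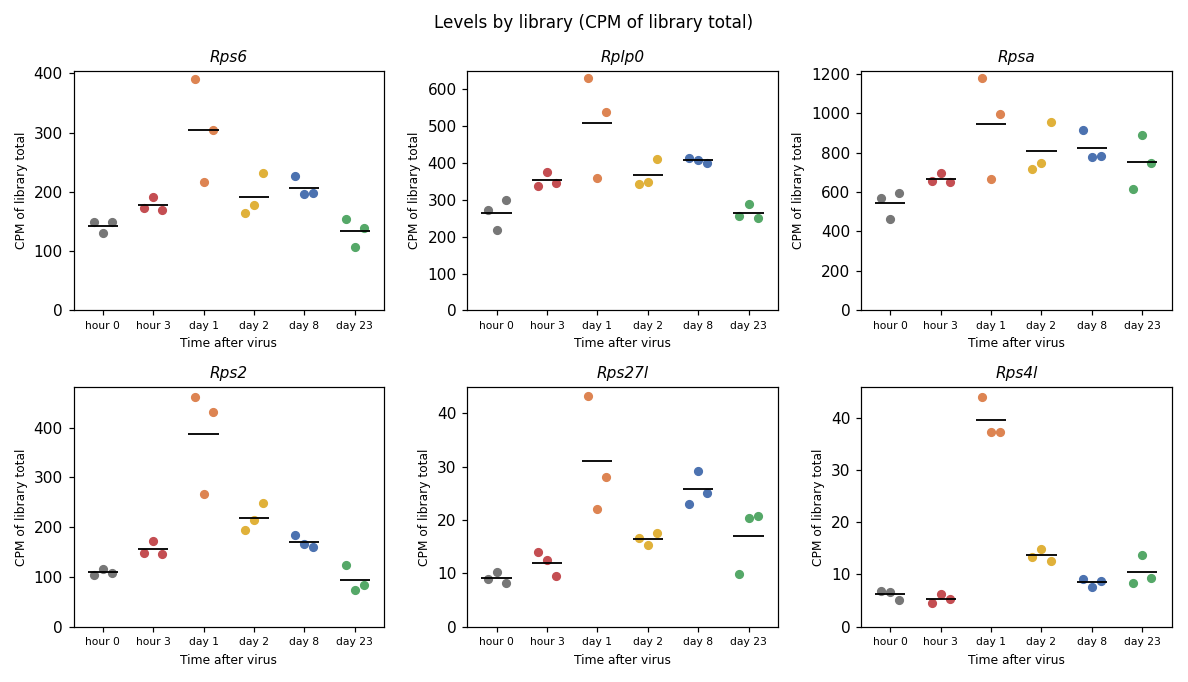
Level of 6 members in each library (y axis, CPM of the library total, from 0) by group (x axis). Points are libraries and lines are group means of 3. In each panel the 3 libraries of day 1 lie above the 3 of hour 0.

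By day 2 the levels were lower than at day 1. Of the 82 members 57 fell and 0 rose from day 1 to day 2 (edgeR, adjusted p below 0.05), against 12% of all genes higher and 11.2% lower. The median log2 fold change was -0.71, and that of all genes 0.78. Library totals alone gave 22 lower and 0 higher, with a median of -0.43, and DESeq2 size factors 33 lower. The count of 57 was 25 without replicate 13 and 35 without replicate 17. Within this contrast Rps4l fell by 1.79 ± 0.267, Rps27l by 1.18 ± 0.286 and Rpl39, which encodes a short large-subunit protein, by 1.16 ± 0.201 on the log2 scale (edgeR adjusted p = 2.14e-05, 0.00397 and 0.000143). The call of Rps27l was lost without replicate 13 (log2 fold change -0.87). Rps6 fell by 0.93 (edgeR adjusted p = 0.000694) and Rplp0 by 0.74 (0.00702). The call of Rplp0 was lost with library totals (-0.46) and without replicate 13 (-0.56). For Rpsa the fold change was -0.50 (edgeR adjusted p = 0.0766).

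Biogenesis factors and translation factors fell in the same step. Of the biogenesis factors 31 of 35 fell and 0 rose, with 21 under library totals alone, and of the translation factors 30 of 35 fell and 0 rose, with 20 under library totals. The density of counts on sensory receptor genes was 0.550 to 1.17 at day 1 and 3.17 to 3.41 at day 2, and its part in this fall was not tested.

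Against uninfected glands the day 2 libraries showed few calls. Of the 82 members 4 rose and 0 fell (edgeR, adjusted p below 0.05), against 5.12% of all genes higher and 9.63% lower, so the share of members was close to that of all genes. These were Rps2 (0.65 ± 0.188, edgeR adjusted p = 0.0168), Rpl18 (0.63 ± 0.209, 0.0399), Rpl41, which encodes a very short peptide (0.51 ± 0.172, 0.0421), and Rps10 (1.71), the last named after its values were seen. Leaving out any single library left 0 or 1 call. Under library totals 23 rose and 0 fell, with a median of 0.43 in place of 0.06, but the median of all genes also moved, to 0.66. Rps6 (0.06, edgeR adjusted p = 0.897), Rplp0 (0.11, 0.789), Rpsa (0.21, 0.616), Rps27l (0.50, 0.329) and Rps4l (0.78, 0.056) did not pass. The density of counts on sensory receptor genes was 1.19 to 1.88 at hour 0 and 3.17 to 3.41 at day 2. Its part in this comparison was not tested.

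At 3 hours the calls depended on the scaling. Under TMM 77 of the 82 members were higher than at hour 0 and 1 was lower (edgeR, adjusted p below 0.05), against 16.9% of all genes higher and 43.1% lower. The median log2 fold change of the members was 1.32, and that of all genes -1.41. With library totals alone 7 were higher and 3 lower, with a median of 0.15 for the members and -2.54 for all genes. The members' median lay 2.73 above that of all genes under TMM and 2.68 above it with library totals. A scaling moves all genes of a library nearly alike, so this gap could hardly differ between scalings. The members' share of all counts overlapped that of hour 0. The density of counts on sensory receptor genes was 1.19 to 1.88 at hour 0 and 0.0424 to 0.0607 at hour 3. Its part in these medians was not tested. This contrast crosses the library sets.

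Among members called at 10 CPM or more in the higher group, Rpl18, Rps25 and Rps13 rose most at hour 3 under TMM. Below that level, Rps10 went from 1.42 to 6.26 and Rpl24 from 0.626 to 3.81 CPM scaled by TMM (means, named after their values were seen). Rpl18, a large-subunit gene, was at 86.4, 73.4 and 70.0 CPM of the library total at hour 0 and at 127, 131 and 125 at hour 3. Its log2 fold change was 1.91 ± 0.214 under TMM (edgeR adjusted p = 2.14e-08) and 0.73 with library totals (0.00164). The groups do not overlap on either footing. For Rps25, used by some viral internal ribosome entry sites, the values were 1.69 ± 0.203 under TMM and 0.51 with library totals (edgeR adjusted p = 7.62e-08 and 0.0163), and for Rps13 1.69 ± 0.192 and 0.51 (2.95e-08 and 0.0159). Rplp0 differed by 1.59 under TMM and 0.42 with library totals (edgeR adjusted p = 1.23e-07 and 0.0418). Rps6 (1.48 and 0.30), Rpsa (1.46 and 0.29) and Rps27l (1.57 and 0.39) passed only under TMM, with edgeR adjusted p of 0.151, 0.183 and 0.195 with library totals. Rps4l was 0.95 under TMM (edgeR adjusted p = 0.00538) and -0.22 with library totals (0.457).

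The biogenesis factors were higher at hour 3 under both scalings. With TMM 33 of 35 were higher and 0 lower (median log2 fold change 2.51), and with library totals 28 were higher and 1 lower (median 1.35). Ncl, nucleolin, stood at 277 ± 5.91 CPM at hour 0 and 898 ± 53.0 at hour 3, and Nop56, a box C/D small nucleolar ribonucleoprotein, at 49.5 ± 7.95 and 175 ± 14.1 (n = 3). Of the 26 regulators of ribosome production 14 were higher and 5 lower under TMM, and 9 higher and 12 lower with library totals. Among them Myc went from 24.9 ± 5.59 to 404 ± 2.36 CPM. Mtor, the kinase gene, went from 97.2 ± 10.7 to 35.1 ± 2.93 CPM, and Mlst8 from 19.4 ± 4.52 to 1.98 ± 0.315. These levels divide by library totals, where the median log2 fold change of all genes was -2.54, against -1.41 under TMM. Values of Mtor and Mlst8 under TMM are not given here. Of the 35 translation factors 33 were higher and 0 lower under TMM, and 18 higher and 4 lower with library totals. The mitochondrial ribosomal protein genes gave 21 higher and 10 lower under TMM but 1 higher and 50 lower with library totals, so their direction turned with the scaling.

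**Figure D4:**
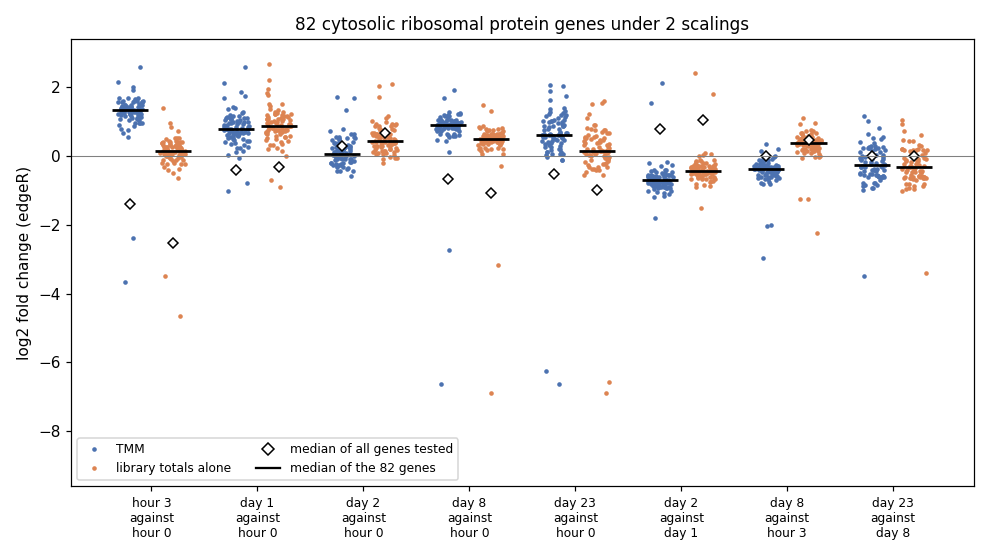
Log2 fold change of the 82 tested members (y axis, edgeR) in the 8 comparisons (x axis), under TMM (blue) and with library totals alone (orange). Bars are medians of the members and diamonds medians of all genes tested. The members' median at hour 3 moves from 1.32 to 0.15 between scalings, at day 1 from 0.78 to 0.87, and at day 8 against hour 3 from -0.39 to 0.38.

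At day 8 the members stood above hour 0 under both scalings. Under TMM 73 of 82 were higher and 1 lower (edgeR, adjusted p below 0.05), against 11.2% of all genes higher and 32.7% lower, and the medians were 0.89 for the members and -0.68 for all genes. Library totals gave 41 higher and 1 lower, with a median of 0.49. Among members called at 10 CPM or more in the higher group, Rps27l rose most. It was at 23.0, 29.1 and 25.1 CPM of the library total against 9.01, 10.2 and 8.19 at hour 0 (log2 fold change 1.91 ± 0.291, edgeR adjusted p = 2.23e-05). Rpl32 (1.29 ± 0.227, 0.000126) and Rpl41 (1.24 ± 0.173, 7.11e-06) came next, both in the large subunit. Rplp0 (1.03), Rpsa (0.99) and Rps6 (0.93) passed the test under both scalings, whereas Rps4l (0.85, edgeR adjusted p = 0.0149) did not with library totals (0.45). This contrast also crosses the library sets. Markers of other cells moved in it. The 5 epithelial and duct markers summed to 1718 to 2256 CPM at day 8 and 329.8 to 510.3 at hour 0, the 6 of macrophages, monocytes and dendritic cells to 111 to 168 against 25.2 to 44.9, and the 4 of blood endothelium to 87.7 to 125 against 63.6 to 66.3, with no marker of these lists at 0. Going the other way, the 5 markers of B and plasma cells summed to 0.926 to 1.66 CPM at day 8 and 7.61 to 12.0 at hour 0. The 4 of neutrophils summed to 0.0831 to 0.328 against 2.10 to 3.20. The secretory genes summed to 47499 to 125180 CPM at day 8, and the fibroblast markers to 22622 to 29247. The part of these in the day 8 difference was not tested. Mitochondrially encoded genes held 12.8 to 15.9% of counts at day 8 and 5.62 to 7.32% at hour 0.

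Compared with hour 3, within a library set, the direction at day 8 depended on the scaling. Under TMM 22 members were lower and 0 higher (edgeR, adjusted p below 0.05), against 16.5% of all genes higher and 14.1% lower. The opposite was found with library totals, with 22 higher and 0 lower. The median log2 fold change was -0.39 under TMM and 0.38 with library totals, where that of all genes was 0.00 and 0.47. The count of 22 lower was 64 when only the 2 groups compared were fitted, 46 with the 9 libraries of the set, 12 without replicate 4, 12 without replicate 5 and 11 without replicate 1. Among members called at 10 CPM or more in the higher group, Rps13 (-0.83 ± 0.187, edgeR adjusted p = 0.000747), Rpl27 (-0.81 ± 0.235, 0.00781) and Rps25 (-0.80 ± 0.198, 0.00199) fell most under TMM. The values of these 3 with library totals were -0.06, -0.03 and -0.03. Below that level, Rps10 went from 3.32 ± 0.519 at hour 3 to 1.40 ± 0.244 CPM of the library total at day 8. Rpl24 went from 2.01 ± 0.923 to 0.840 ± 0.300 (both named after their values were seen). Rps6 was -0.55 under TMM (edgeR adjusted p = 0.0216) and 0.23 with library totals (0.439), and Rplp0 was -0.56 (0.0242) and 0.21 (0.459). Rpsa (-0.47, edgeR adjusted p = 0.0854), Rps4l (-0.10, 0.976) and Rps27l (0.33, 0.451) did not pass under TMM. The biogenesis factors did not share this dependence: 33 of 35 were lower and 0 higher under TMM, and 30 lower and 1 higher with library totals.

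At day 23 the 3 libraries differed in how the ribosomal protein messages were divided. Over the 76 members with a mean count above 100, the SD of the log2 deviation from the hour 0 mix was 0.265, 0.684 and 0.512 in replicates 7, 8 and 9. In the other 15 libraries it was 0.0982 to 0.435. Per 1000 counts on the 83 genes, Rpl29 held 6.96, 27.4 and 14.4 counts in replicates 7, 8 and 9, with 7.19 ± 0.366 at hour 0 (SD, n = 3). Rpl14, a large-subunit gene, held 9.49, 24.5 and 18.4, with 10.2 ± 1.62 at hour 0, and Rps26 held 9.81, 22.0 and 16.5, with 8.59 ± 0.753. Rpl7a went the other way, at 18.0, 7.53 and 7.31 against 17.3 ± 0.356, as did Rpl7, at 20.7, 7.76 and 10.8 against 18.4 ± 0.0842. In each of the 5, replicate 7 lay close to the hour 0 libraries and replicates 8 and 9 away from them. Mucl2, a secretory gene, took 6.46%, 17.3% and 14.4% of counts in replicates 7, 8 and 9, and its part in this division was not tested. Rpl29 shares words with 81 pseudogenes and Rpl7a with 120. Pseudogenes that share words with members went either way. Rps23-ps1 (Rps23) was at 18.6 ± 5.67 CPM at hour 0 and 85.4 ± 63.5 at day 23 (n = 3). Gm6136 (Rpl6) was at 11.6 ± 0.571 and 45.0 ± 33.1, and Gm17669 (Rpl29) at 56.7 ± 11.5 and 34.2 ± 9.24. Their part in this division was not tested.

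**Figure D5:**
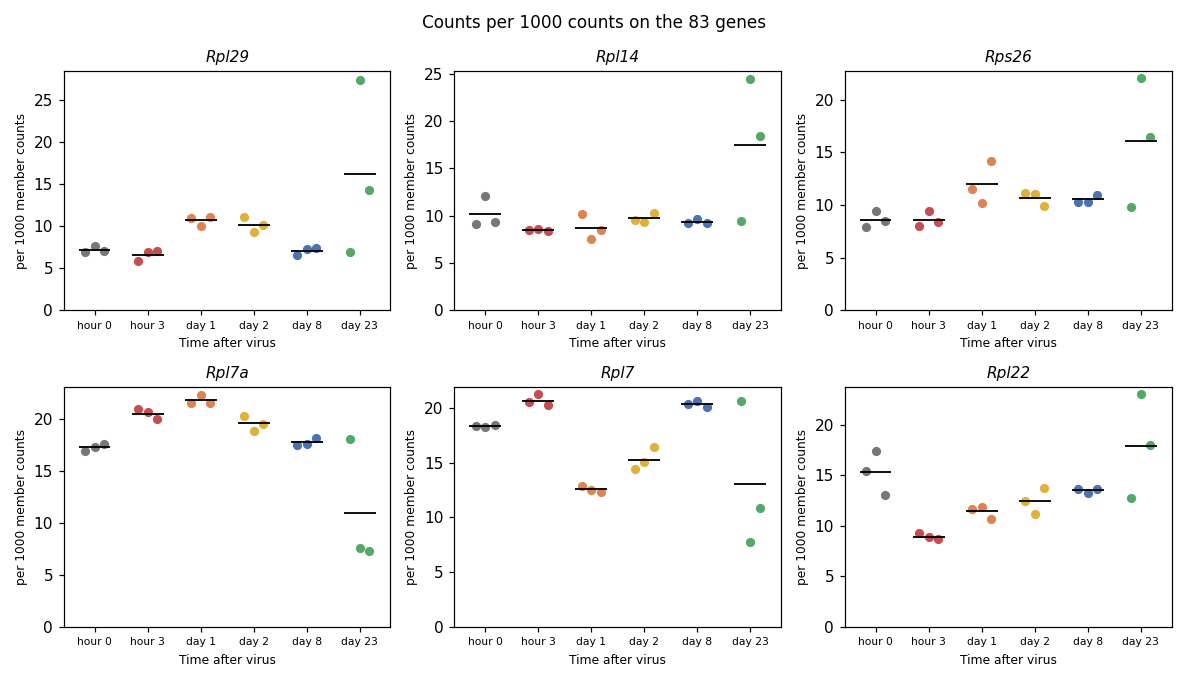
Counts of 6 members per 1000 counts on the 83 genes (y axis, from 0) by library and group (x axis). Points are libraries, in the order of their replicate numbers within a group, and lines are means of 3. At day 23 replicate 7 lies near the earlier groups, while replicates 8 and 9 are high for Rpl29, Rpl14, Rps26 and Rpl22 and low for Rpl7a and Rpl7.

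With that spread, 49 of 82 members were higher at day 23 than at hour 0 and 2 lower (edgeR, adjusted p below 0.05), against 8.51% of all genes higher and 25.4% lower. The median log2 fold change was 0.62, and that of all genes -0.53. The count of 49 was 17 with library totals alone (3 lower), 14 when only the 2 groups compared were fitted, 23 without replicate 8 and 29 without replicate 11. Among members called at 10 CPM or more in the higher group, Rpl29 (2.07 ± 0.357, edgeR adjusted p = 0.000223), Rps26 (1.73 ± 0.287, 0.000148) and Rpl14 (1.62 ± 0.305, 0.000563) rose most. Rpl29 was at 76.6, 429.9 and 179 CPM of the library total in replicates 7, 8 and 9, and at 78.4, 74.1 and 82.4 at hour 0, so replicate 7 lay among the hour 0 libraries. Rps27l (1.38, edgeR adjusted p = 0.00166), Rps4l (1.25, 0.00215) and Rpsa (0.92, 0.0024) passed, and Rps6 (0.33, 0.163) and Rplp0 (0.46, 0.0615) did not. This contrast, too, crosses the sets.

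From day 8 to day 23, within a set, 15 members fell and 1 rose (edgeR, adjusted p below 0.05), against 2.25% of all genes higher and 3.08% lower. Library totals gave 21 lower and 1 higher. The median log2 fold change was -0.27, and that of all genes 0.00. The 15 came down to 8, 6, 7 and 5 without replicates 1, 2, 3 and 9 in turn. Among members called at 10 CPM or more in the higher group, Rpl7a (-0.98 ± 0.210, edgeR adjusted p = 0.00448), Rpl7 (-0.95 ± 0.201, 0.00441) and Rpl35 (-0.92 ± 0.181, 0.00227) fell most. The member that rose was Rpl29 (1.17 ± 0.347, edgeR adjusted p = 0.0445), with 0.16 and no call without replicate 8. Rps6 (-0.60, edgeR adjusted p = 0.0547), Rplp0 (-0.57, 0.0866), Rps27l (-0.53, 0.347), Rps4l (0.40, 0.513) and Rpsa (-0.07, 1) did not pass. Without replicate 7, 5 members rose.

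The members were also tested against their own sum, with the summed count of the 83 genes as the library size. That asks which members changed relative to the family, and it does not depend on TMM. The members' median is near 0 by construction, and other genes carry their offset from the family. At hour 3 against hour 0 the medians were 0.009 for the members and -2.69 for all genes. The shares of all genes called are therefore not a background rate for the members. Against hour 0, 1 of the 82 rose and 5 fell by hour 3, where 75.7% of all genes were called (edgeR, adjusted p below 0.05). By day 1, 4 rose and 4 fell (30.2% of all genes were called), and on day 2 none was called (0 of 82, with 10.2% of all genes). Of the later groups, day 8 had 1 higher and 2 lower (62.1%), and day 23 had 4 higher and 6 lower (46.1%). From day 1 to day 2, 1 fell (23.6% of all genes were called), at day 8 against hour 3, 1 rose (28.4%), and from day 8 to day 23, 2 rose (2.97%). When only the 2 groups compared were fitted, 12 members were called at hour 3, 3 at day 1, 5 at day 2 and 1 at day 23, each against hour 0. In that fit 19 were called between day 8 and hour 3.

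At day 1 the members that rose relative to the family were Rps4l, Rps2, Rps27l and Rpl18. Rps2 held 9.19, 11.9 and 9.16 of each 1000 member counts at hour 0 and 18.7, 17.9 and 21.1 at day 1, with no overlap (log2 fold change 0.93 ± 0.247, edgeR adjusted p = 0.00462). Rps4l rose by 1.83 ± 0.315 (edgeR adjusted p = 3.3e-05) and Rps27l by 0.87 ± 0.292 (0.0245). Those that fell were led by Rps29, Rps21 and Rps27, short small-subunit proteins. Rps29 held 6.16, 5.75 and 6.09 per 1000 at hour 0 and 3.55, 3.17 and 3.97 at day 1 (-0.75 ± 0.239, edgeR adjusted p = 0.0175). Rps21 (-0.66 ± 0.232, edgeR adjusted p = 0.0312) and Rps27 (-0.62 ± 0.229, 0.0406) followed. The 8 calls came down to 5, 4, 3, 3 and 4 without replicates 10, 11, 12, 13 and 15, and the call of Rps27l was lost without replicate 10, 12 or 13. From day 1 to day 2 Rps4l fell relative to the family by 1.10 ± 0.307 (edgeR adjusted p = 0.0116), a call that was lost without replicate 16 or 18.

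The 6 members called at hour 3 against hour 0 on this scale were Rpl18, which was higher, and Rpl22, Rps29, Rpl39, Rpl10l and Rpl3l, which were lower. The last 2 had 42 and 30 counts over the hour 0 libraries and 2 and 4 over those of hour 3. Rps29 fell by 0.63 ± 0.239 (edgeR adjusted p = 0.0196), from 6.16, 5.75 and 6.09 per 1000 to 3.93, 3.88 and 3.84, with no overlap, and Rpl39 fell by 0.54 ± 0.243 (0.0442); both were named after their values were seen. Rpl18 held 7.62, 7.53 and 5.98 per 1000 at hour 0 and 10.8, 10.3 and 10.7 at hour 3 (0.59 ± 0.209, edgeR adjusted p = 0.0132). Rpl22, whose product also binds viral RNA, held 15.4, 17.4 and 13.1 and then 9.32, 8.85 and 8.66 (-0.78 ± 0.226, edgeR adjusted p = 0.00366). It was at 13.6, 13.3 and 13.6 at day 8, higher than at hour 3 (0.60 ± 0.225, edgeR adjusted p = 0.0455), a call lost without any 1 of the 6 libraries. The 6 calls at hour 3 came down to 3 without replicate 4 or replicate 5. At day 8 Rps27l rose relative to the family (0.98 ± 0.292, edgeR adjusted p = 0.0064), from 0.795, 1.05 and 0.700 to 1.42, 1.93 and 1.64 per 1000.

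At day 23 the rises relative to the family were led by Rpl29 (1.18 ± 0.289, edgeR adjusted p = 0.00319), Rps26 (0.91 ± 0.243, 0.00581) and Rpl14 (0.78 ± 0.253, 0.017), and Rpl35 fell (-0.79 ± 0.220, 0.00763). Against day 8 Rpl29 (1.19 ± 0.288, edgeR adjusted p = 0.0186) and Rpl14 (0.90 ± 0.253, 0.0449) rose. The 10 calls against hour 0 were 1 without replicate 8, 24 without replicate 7, 4 without replicate 10 and 6 without replicate 9. Without replicate 8 the values of Rpl29, Rps26 and Rpl14 against hour 0 were 0.57, 0.61 and 0.45, with no call. The 2 calls against day 8 were 13 without replicate 7, 1 without replicate 9 and 0 without replicate 1, 2, 3 or 8.

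The paralogs Rpl3l, known from heart and skeletal muscle, and Rpl10l, known from testis, were near 0 throughout. Summed over the 3 libraries of each group, in order of time, Rpl10l had 42, 2, 23, 45, 0 and 0 counts, and Rpl3l had 30, 4, 21, 62, 5 and 0. Both were thus seen chiefly in the libraries of hour 0, day 1 and day 2, the set with the higher counts on sensory receptor genes. On the scale used for the sensory receptor genes Rpl10l was at 16.7 at hour 0 and 29.1 at day 2, and the receptor genes at 1.19 to 1.88 and 3.17 to 3.41. The ratio of Rpl10l at hour 0 to hour 3 was 34.7 (95% exact interval 9.03 to 296, counting error only), and its level was at least 22.0-fold lower at day 8 and at least 13.4-fold lower at day 23, taking 3 counts over the group as the floor. Most of the 42 counts at hour 0 came from replicate 12. Without it 12 counts were left, the ratio was 16.6 and the bounds 10.5 and 6.41. The ratio was also lower without replicate 4 (22.8) or 6 (23.0), and without replicate 5 no count was left at hour 3 (at least 15.8-fold). Without replicate 2 or 3 the day 8 bound was 14.5 or 13.9, and without replicate 8 the day 23 bound was 5.64. For Rpl3l at day 23 the bound is at least 9.56-fold lower than hour 0, but without replicate 10 only 4 of the 30 counts at hour 0 were left and the bound was 1.89. Without replicate 8 it was 4.03 and without replicate 12 it was 14.4. These values without single libraries were added after the data were seen. These differences cross the library sets.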

How the data were processed

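The deposited files hold raw counts per Ensembl gene, 1 file per library. Per the submitters' processing notes, FastQC, STAR, Subread and DESeq2 were used with the mm10 build. Versions, annotation, strand setting and the treatment of multiply mapping reads are not given in the sources used here. Symbols were matched to GENCODE M21 for 55141 of 55401 IDs.

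Counts were tested with edgeR 4.0.16 (R 4.3.3, limma 3.58.1; quasi-likelihood, TMM, all 18 libraries in 1 fit, filterByExpr with a minimum count of 10 and total of 15), with Benjamini-Hochberg adjustment over all 27525 genes and a threshold of 0.05. A second fit took the summed member counts as library size. CPM divide by library totals unless TMM is named. Words of 50 bases were compared between GENCODE M21 transcripts. Named members are the 3 largest rises and falls per comparison at 10 CPM or more in the higher group, plus Rps27l, Rpl3l, Rpl39l, Rpl10l, Rps4l, Rplp0, Rpsa and Rps6, the 5 highest and lowest levels, and the 3 largest rises and falls relative to the family; a gene under this rule is not reported here. Alternatives were DESeq2 1.42.0 and its size factors, library totals, other filters, fewer libraries and single libraries left out. Members and lists were chosen with earlier results of these data known. The labels give each library a subject of its own, taken here as a mouse, and p-values measure the spread between these mice. Intervals and floors cover counting error only.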

Additional observations from a re-analysis of the deposited data

How the results depend on the processing

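No paired analysis was possible because the replicate numbers 1 to 18 are each used once. With library totals alone the members higher or lower were 7 and 3 at hour 3 against hour 0 and the members higher were 23 at day 2, 41 at day 8 and 17 at day 23, while 22 fell from day 1 to day 2, and 22 were higher and 0 lower at day 8 against hour 3. For single members the same scaling turned Rps4l at hour 3 to -0.22, and at day 8 against hour 3 turned Rps4l to 0.67, Rplp0 to 0.21 and Rps6 to 0.23, on the log2 scale. The cause of the differing TMM factors was not tested. DESeq2 size factors in edgeR gave 8 higher at day 2 against hour 0 and 33 lower from day 1 to day 2. The DESeq2 Wald test gave 16 higher at day 2 against hour 0, 36 lower from day 1 to day 2, 39 lower at day 8 against hour 3, and 0 higher and 25 lower from day 8 to day 23.

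Without the filter there were 1 higher and 1 lower at day 2 against hour 0, 14 lower at day 8 against hour 3, 2 higher and 24 lower from day 8 to day 23, and, relative to the members' own sum, 3 calls at day 1 and 0 at day 8 against hour 3. The stricter filter of 5 CPM in 3 libraries left 0 lower at hour 3, day 8 and day 23 against hour 0, since the sparse paralogs were not tested. With only the 2 groups compared there were 0 lower at hour 3, 4 lower at day 2, 0 lower at day 8, and 14 higher and 0 lower at day 23, each against hour 0, then 64 lower at day 8 against hour 3, and 0 higher and 5 lower from day 8 to day 23. The same setting relative to the members' own sum gave 12 calls at hour 3, 3 at day 1, 5 at day 2 and 1 at day 23 against hour 0, 2 from day 1 to day 2, 19 at day 8 against hour 3 and 0 from day 8 to day 23. With the 9 libraries of a replicate range there were 1 lower at day 2 against hour 0, 46 lower at day 8 against hour 3 and 0 higher from day 8 to day 23.

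Leaving out single libraries gave these ranges. Against hour 0, hour 3 had 0 to 1 lower and 3 to 5 calls relative to the family. Day 1 had 3 to 9 calls relative to the family. Day 2 had 0 to 1 higher and 0 to 1 lower. Day 23 had 23 to 50 higher, 0 to 2 lower and 1 to 24 calls relative to the family. From day 1 to day 2 there were 25 to 71 lower and 0 to 1 calls relative to the family. Day 8 against hour 3 had 11 to 21 lower and 0 calls (0 to 0) relative to the family. From day 8 to day 23 there were 0 to 5 higher, 5 to 16 lower and 0 to 13 calls relative to the family. For the rise at day 1, and likewise for the step from day 1 to day 2, no member was called in the opposite direction under TMM, DESeq2 size factors or library totals, under any filter, or without any single library; relative to the members' own sum 4 fell at day 1. Without the 10 most abundant genes the share of counts in hour 0 libraries was 1.35%, in those of hour 3 1.55%, of day 2 1.68%, of day 8 2.20% and of day 23 1.88%, and without mitochondrially encoded genes it was 1.30% at hour 3 and 1.82% at day 8. Depth limits the paralogs Rpl3l, Rpl10l and Rpl39l, whose counts are near the floor.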
